A study of Mus musculus with 6 samples.

Results

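Germ cells keep piRNA factors and stored RNA in cytoplasmic granules, and many proteins of these granules carry Tudor domains. The 10 genes described here are Tdrd1, Tdrd3, Tdrd5, Tdrd6, Tdrd7, Tdrd9, Tdrd12, Tdrkh and Snd1, which encode Tudor domain proteins, and Ddx4, which encodes the VASA helicase of the same granules. They were chosen by symbol from the 37924 genes of the deposited table, and all 10 were found. Transcript levels were measured by RNA sequencing in whole ovaries of C57BL/6J/129S7/SvEvBrd mice at postnatal day 14. In the 3 conditional knockout libraries, called cKO, the mice were homozygous for a floxed allele and carried Gdf9iCre, in which the promoter of Gdf9, an oocyte growth factor gene, drives the Cre recombinase. The mice of the 3 control libraries were homozygous for the same floxed allele and had no Cre, so the floxed allele is common to both groups and the Cre transgene is not matched in control. Every library pooled 3 ovaries, with 1 ovary taken per mouse. The spread between libraries is therefore a spread between pools, and single mice are not seen.

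A Tudor domain is a small fold that binds methylated arginine or lysine. PIWI proteins and VASA carry arginines, next to glycines, that PRMT5 methylates, and Tudor proteins bind these marks and so hold piRNA factors together in the granule. Mouse mutants of several of these genes lose transposon silencing in male germ cells and make no sperm, whereas mutant females are often fertile. VASA protein is widely used as a germ cell marker in the ovary. Tdrd3 and Snd1 differ from the others in that they are used in many cell types outside the germ line.

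Depth, estimated from the lowest values, ran from 19.6 to 24.9 M fragments, and between 13170 and 13649 genes per library had an FPKM of at least 1 (fragments scaled to transcript length and library size). Genes averaging 0.5 FPKM or more across the 6 libraries entered the test, which was limma on log2(FPKM + 1) with p adjusted over all 14934 genes tested by the Benjamini-Hochberg method. In cKO ovaries 334 genes were higher and 312 lower at an adjusted p below 0.05, and these split as 254 and 577 with libraries centred on the median and as 516 and 216 on the TPM scale. Both directions together made 4.33% of the tested genes. The calls depended on single libraries, with 0 higher and 2 lower without cKO 1, 1 and 4 without control 1, 0 and 2 without control 2, and 40 and 38 without cKO 2. Markers of the ovary were present in all libraries, and some marker lists differed between the groups. The 15 growing oocyte genes summed to 2596 to 4073 FPKM in cKO libraries and 1995 to 2217 FPKM in control libraries. Padi6, Zp3 and Zp2 weighed heavily in this sum, with means of 607, 484 and 452 FPKM in cKO. Their means in control were 305, 277 and 241 FPKM. Of the 15 genes 12 had a positive and 3 a negative log2 change, with Bmp15 at -0.67. The 6 early oocyte regulator genes summed to 84.4 to 112 FPKM in cKO and 54.7 to 86.2 FPKM in control. The 10 granulosa cell genes summed to 2094 to 2515 FPKM in cKO libraries and 3168 to 4058 FPKM in control libraries, and the 6 stroma genes to 991 to 1358 FPKM in cKO and 747 to 849 FPKM in control. Of these lists 3 granulosa genes fell, 2 stroma genes rose and 1 adipose gene, Plin1, rose. Plin1 went against its list, where 5 of 6 tested genes had a negative log2 change (median -0.78). Of the 10 granulosa genes 7 had a negative and 3 a positive log2 change, with Foxl2 at 0.43. Inha weighed heavily in the granulosa sum, with means of 1265 FPKM in cKO and 2017 FPKM in control. By limma 0 theca, endothelial, immune and male germ cell genes passed. Of them 2, 1, 0 and 0 were higher at an unadjusted p below 0.05, beside 14.5% of all tested genes. None of the granulosa, stroma and adipose calls held without cKO 1, cKO 2, control 1 or control 2. Control 3 stood apart for the 8 adipose genes, which summed to 53.2 FPKM there and to 16.5 to 18.8 FPKM in the other 5 libraries. In cKO 3 the 6 immune cell genes summed to 78.6 FPKM, against 28.4 to 41.1 FPKM in the other libraries. The 6 male germ cell genes summed to 1.73 to 3.85 FPKM in cKO and 1.93 to 3.71 FPKM in control, and 2 of them were at 0 in every library.

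**Figure D1:**
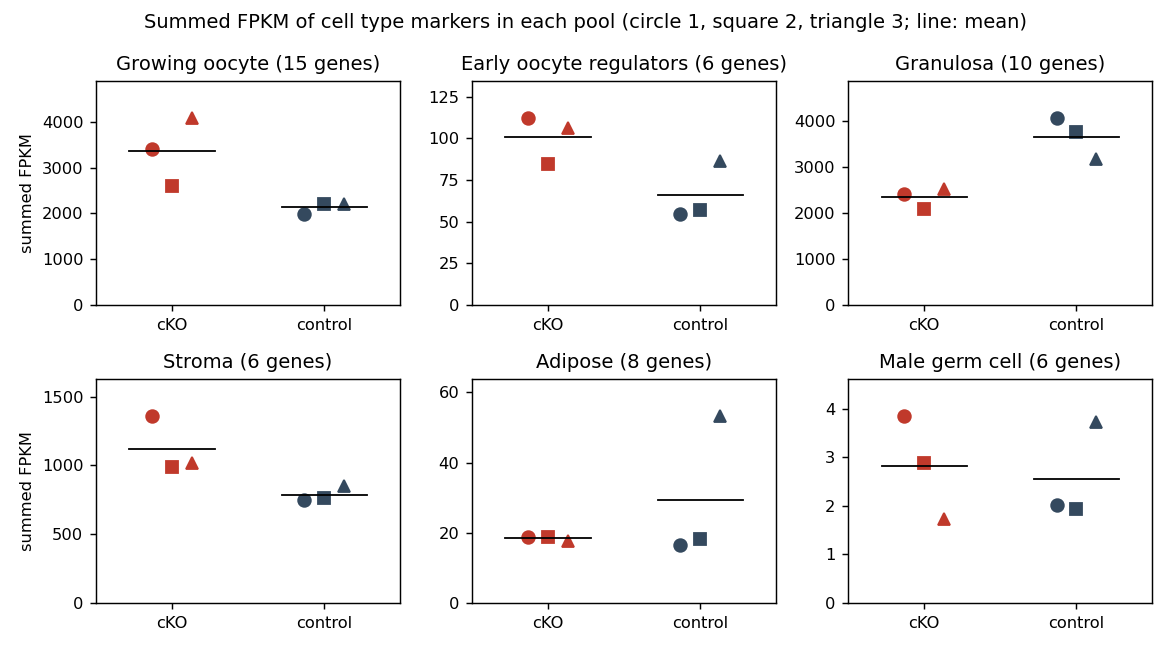
Summed FPKM (y axis) of 6 marker lists in each pool, with cKO on the left and control on the right; symbols mark pools 1 to 3 and the line is the group mean. The growing oocyte sum was higher in every cKO pool, the granulosa sum was lower in every cKO pool, and the adipose sum of 53.2 FPKM in control 3 stood apart.

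One of the 10 genes rose in cKO ovaries and none fell. Tdrd9, a helicase gene of the nuclear branch of the piRNA pathway, rose 2.25-fold by group means. Ddx4 and Tdrd1 were also higher in every cKO pool than in any control pool, and Tdrd5 was lower in every cKO pool, but these did not pass the test over all genes. Tdrd3, Tdrd7, Tdrd12, Tdrkh and Snd1 had overlapping groups, and Tdrd6 was too low to be tested. With 9 of the 10 genes tested, 1 passed in the higher direction, where 2.24% of all tested genes passed, and 0 passed in the lower direction, where 2.09% did. At an unadjusted p below 0.05 by limma, 3 of the 9 were higher and 1 was lower, against 14.5% and 9.8% of all genes tested. The groups did not overlap for 3 genes with cKO higher and 1 with cKO lower, where the shares of all tested genes were 18.0% and 12.0%, or 30.0% in either direction. The median log2 change was 0.07 over the 9 tested genes and 0.05 over all genes tested. With 9 genes, each count rests on 1 to 3 of them. In RNA from whole ovary, fewer cells of a type and less RNA per cell cannot be told apart.

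**Figure D2:**
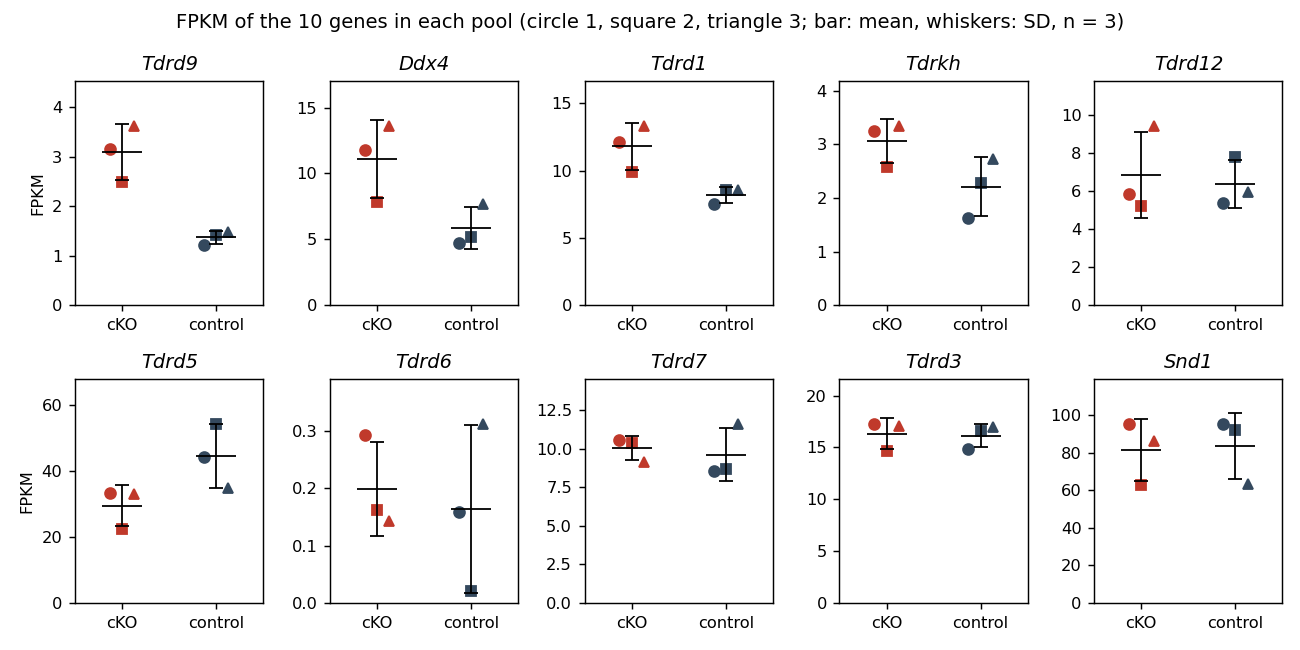
FPKM (y axis, from 0, a scale for each gene) of the 10 genes in each pool, with cKO on the left and control on the right; symbols mark pools 1 to 3, the bar is the mean and whiskers are the SD (n = 3). Tdrd9, Ddx4 and Tdrd1 were higher in each cKO pool than in any control pool, and Tdrd5 was lower.

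Snd1 was the most abundant of the 10 transcripts in both groups, with means of 81.5 FPKM in cKO and 83.8 FPKM in control. Tdrd5 followed at 29.5 FPKM in cKO and 44.4 FPKM in control, and then Tdrd3 at 16.3 FPKM in cKO and 16.1 FPKM in control. The ranges of these 3 genes did not touch within either group. Below them the cKO order was Tdrd1, Ddx4, Tdrd7 and Tdrd12, from 11.8 to 6.85 FPKM, and the control order was Tdrd7, Tdrd1, Tdrd12 and Ddx4, from 9.61 to 5.87 FPKM. Neighbours in these runs of 4 genes overlapped in both groups and are not separated by these pools. Tdrd9 and Tdrkh came next, at 3.08 and 3.06 FPKM in cKO with overlapping ranges, and at 1.37 and 2.21 FPKM in control, where their ranges did not overlap. Tdrd6 was the lowest in both groups.

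The sequences before the start of Tdrd9, Ddx4, Tdrd1 and Tdrd5 are shown because these are the genes whose groups did not overlap. Each is the 250 bases before the transcription start given by RefSeq on GRCm38.p6, 5′ to 3′ on the strand of the gene, and capitals mark the letters CACGTG. This palindromic form of the E-box is bound by several basic helix-loop-helix factors, MAX and MGA among them. Tdrd9 lies on the forward strand at chr12:111971309-111971558, Ddx4 on the reverse strand at chr13:112652311-112652560, Tdrd1 on the forward strand at chr19:56825959-56826208 and Tdrd5 on the reverse strand at chr1:156303349-156303598.
Tdrd9: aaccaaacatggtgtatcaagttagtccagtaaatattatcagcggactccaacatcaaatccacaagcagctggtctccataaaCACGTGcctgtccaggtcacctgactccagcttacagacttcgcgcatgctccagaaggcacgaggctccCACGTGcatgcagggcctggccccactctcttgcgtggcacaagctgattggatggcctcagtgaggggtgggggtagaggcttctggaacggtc
Ddx4: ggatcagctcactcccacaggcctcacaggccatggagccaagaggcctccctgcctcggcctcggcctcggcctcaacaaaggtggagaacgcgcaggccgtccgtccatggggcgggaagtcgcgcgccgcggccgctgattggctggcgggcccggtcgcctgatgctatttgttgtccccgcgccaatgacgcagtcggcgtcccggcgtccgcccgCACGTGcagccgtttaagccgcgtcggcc
Tdrd1: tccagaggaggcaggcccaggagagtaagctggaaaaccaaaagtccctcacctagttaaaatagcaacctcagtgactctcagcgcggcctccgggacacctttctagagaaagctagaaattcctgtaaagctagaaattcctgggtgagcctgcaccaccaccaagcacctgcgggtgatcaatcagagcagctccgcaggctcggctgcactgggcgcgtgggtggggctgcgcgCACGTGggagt
Tdrd5: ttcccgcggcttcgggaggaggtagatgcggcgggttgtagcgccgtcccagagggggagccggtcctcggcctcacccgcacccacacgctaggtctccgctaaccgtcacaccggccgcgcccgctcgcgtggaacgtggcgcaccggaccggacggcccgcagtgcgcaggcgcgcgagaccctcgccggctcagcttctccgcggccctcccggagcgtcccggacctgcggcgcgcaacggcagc

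Tdrd9 encodes a Tudor protein with a DExH-box helicase domain that works with the nuclear PIWI protein of mouse male germ cells in silencing LINE-1 elements. It measured 3.15, 2.49 and 3.62 FPKM in cKO 1 to 3, against 1.22, 1.41 and 1.48 FPKM in control 1 to 3. All cKO pools were above all control pools, and the control pools were close together. The means were 3.08 ± 0.568 FPKM in cKO and 1.37 ± 0.137 FPKM in control (SD, n = 3). The log2 change was 0.78 (SE 0.14, adjusted p = 0.0325 by limma), with a 95% interval from 0.46 to 1.10. At the estimated depth these levels stand for 302.5 to 488 fragments in a cKO library and 149 to 164 in a control library. The pass depended on the libraries used. The adjusted p by limma was 0.114 without cKO 1, 0.0529 without cKO 2, 0.0592 without cKO 3, 0.14 without control 1 and 0.146 without control 2, and of these 6 fits only the one without control 3 passed, at 0.0413. The log2 change lay between 0.69 and 0.89 in these fits. Without both libraries that stood apart for other markers, control 3 and cKO 3, it was 0.72 at an adjusted p of 0.0732.

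Ddx4 encodes the DEAD-box RNA helicase VASA, which mouse oocytes carry from the primordial stage. It measured 11.8, 7.83 and 13.6 FPKM in cKO 1 to 3, against 4.70, 5.20 and 7.70 FPKM in control 1 to 3. The groups did not overlap, but the lowest cKO pool and the highest control pool almost met. The means were 11.1 ± 2.95 FPKM in cKO and 5.87 ± 1.61 FPKM in control (SD, n = 3). The log2 change of FPKM + 1 was the largest of the 9 tested genes, at 0.81 (SE 0.22), and missed the threshold (adjusted p = 0.0845 by limma). With a pseudocount of 0.1 Tdrd9 ranked above Ddx4, at 1.11 against 0.90. The ratio of group means was 2.25 for Tdrd9 and 1.89 for Ddx4. With 1 library left out, the log2 change of Ddx4 lay between 0.65 and 1.02. The adjusted p by limma ran from 0.0552 without control 3 to 0.273 without control 2. With libraries weighted by their quality Ddx4 passed, at an adjusted p of 0.0192 by limma, in a fit that called 1041 genes higher and 743 lower. Estimation of these weights stopped before convergence. Control 2 had a weight of 3.56, against 0.46 to 1.39 in the other libraries.

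Tdrd1 encodes a scaffold with several Tudor domains that binds the methylated arginines of PIWIL2 in the cement between mitochondria. It measured 12.2, 9.94 and 13.3 FPKM in cKO 1 to 3, against 7.54, 8.57 and 8.54 FPKM in control 1 to 3. Each cKO pool was above each control pool. The log2 change was 0.47 (SE 0.12, adjusted p = 0.0715 by limma). It passed with library weights, at 0.0274, and on the TPM scale, at 0.0405, where 1041 and 516 of all genes passed with cKO higher. On the scale of growing oocyte genes, given below, its log2 change was near 0.

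Tdrkh encodes a protein with KH and Tudor domains on the surface of mitochondria, where PIWI-bound RNA is trimmed. It measured 3.25, 2.59 and 3.35 FPKM in cKO 1 to 3, against 1.63, 2.28 and 2.73 FPKM in control 1 to 3. The cKO 2 pool was below control 3, so the groups overlapped. The log2 change was 0.35 with a 95% interval from -0.02 to 0.71. Of the exon bases of Tdrkh, 36.7% lie under exons of Oaz3, a germ cell antizyme gene on the opposite strand. Oaz3 itself was at no more than 0.171 FPKM in any of the 6 libraries.

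Tdrd12, which encodes a helicase-like Tudor protein needed for secondary piRNA production in mouse testis, measured 5.86, 5.25 and 9.45 FPKM in cKO 1 to 3, against 5.40, 7.78 and 5.96 FPKM in control 1 to 3. The high cKO value came from cKO 3 alone, and the groups overlapped. Its log2 change of 0.06 had a 95% interval from -0.42 to 0.55, and without cKO 3 it was -0.16. Tdrd9, by contrast, was higher in all 3 cKO pools.

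Tdrd5 encodes a protein with LOTUS and Tudor domains that acts in transposon silencing and in the chromatoid body of mouse spermatids. It measured 33.1, 22.3 and 32.9 FPKM in cKO 1 to 3, against 44.2, 54.2 and 34.7 FPKM in control 1 to 3. The cKO pools were all lower, and control 3 came close to the higher cKO pools. The means were 29.5 ± 6.16 FPKM in cKO and 44.4 ± 9.77 FPKM in control (SD, n = 3). The log2 change was -0.57, the 95% interval ran from -1.04 to -0.11, and limma gave an adjusted p of 0.135. With 1 library left out, the log2 change of Tdrd5 lay between -0.74 and -0.39. The adjusted p by limma ran from 0.0843 without control 3 to 0.377 without control 2. An antisense gene, 4930518J20Rik, covers 2.54% of its exon bases.

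Tdrd7, the other LOTUS and Tudor domain gene, which is needed in the chromatoid body and in the lens, measured 10.6, 10.4 and 9.14 FPKM in cKO 1 to 3, against 8.55, 8.67 and 11.6 FPKM in control 1 to 3. The groups overlapped through control 3, the highest of all 6 libraries. Its log2 change was 0.07 with a 95% interval from -0.23 to 0.36. Tdrd6, which builds the chromatoid body of spermatids, measured 0.29, 0.16 and 0.14 FPKM in cKO 1 to 3, against 0.16, 0.02 and 0.31 FPKM in control 1 to 3. The highest and the lowest value both lay in control. These levels stand for an estimated 25.1 to 48.4 fragments in a cKO library and 3.05 to 43.3 in a control library. Its mean was under the filter of 0.5 FPKM, so it was not in the limma test, and its groups overlapped.

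Tdrd3 and Snd1, the transcripts used outside the germ line as well, had close group means. This was not particular to them, as the ratio of group means was 1.04 for Tdrd7 and 1.07 for Tdrd12. Tdrd3, which encodes a reader of methylated arginine that binds the topoisomerase TOP3B, measured 17.3, 14.6 and 17.1 FPKM in cKO 1 to 3, against 14.9, 16.6 and 16.9 FPKM in control 1 to 3. The groups overlapped over nearly their whole range. Its log2 change was 0.02, with the narrowest 95% interval of the 9 genes, from -0.21 to 0.24. Snd1, which encodes Tudor-SN, a nuclease-like protein of RNA granules, measured 95.4, 62.9 and 86.2 FPKM in cKO 1 to 3, against 95.7, 92.3 and 63.6 FPKM in control 1 to 3. In each group 1 pool, cKO 2 or control 3, was far below the other pools. Its log2 change was -0.04 with a 95% interval from -0.50 to 0.42.

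**Figure D3:**
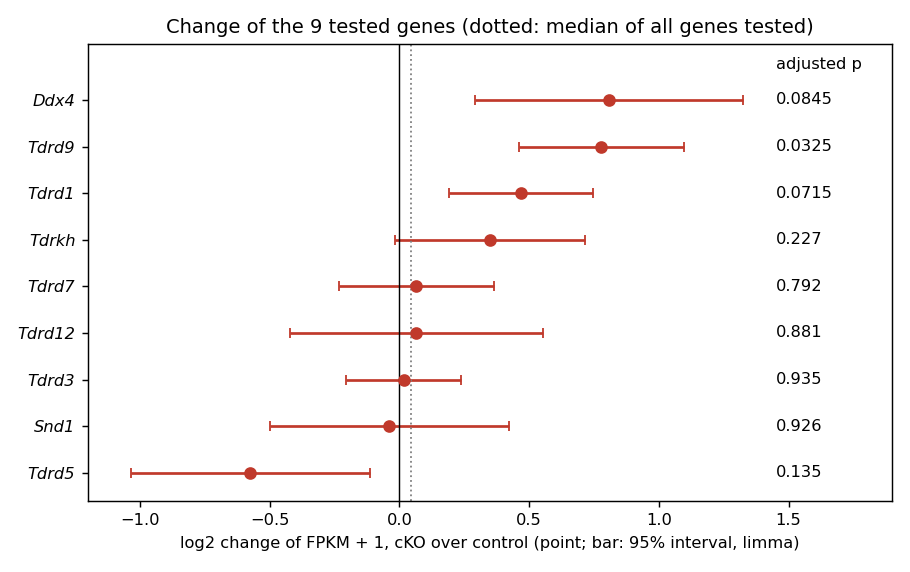
Log2 change of FPKM + 1, cKO over control (x axis), of the 9 tested genes, with points for the estimate, bars for the 95% interval the adjusted p by limma at the right and a dotted line at the median of all genes tested. Ddx4, Tdrd9 and Tdrd1 lie to the right of 0 and Tdrd5 to the left with their whole intervals, and Tdrd9 alone has an adjusted p below 0.05, at 0.0325.

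As the growing oocyte sum was higher in every cKO pool, each gene was also set against the 15 growing oocyte genes within its library, as its log2(FPKM + 1) minus the mean log2(FPKM + 1) of those genes. On this scale the median log2 change of all tested genes was -0.42, so values are to be read against that shift. Tdrd5 stood at -2.18, -2.52 and -2.63 in cKO 1 to 3, against -1.29, -1.17 and -1.73 in control 1 to 3. It remained lower in all 3 cKO pools, with a difference of -1.04. Tdrd9 stood at -5.22, -5.26 and -5.50 in cKO 1 to 3, against -5.64, -5.69 and -5.58 in control 1 to 3, a difference of 0.31 with no overlap. Tdrd1 averaged -3.68 in both groups, with overlapping pools and an exact permutation p of 1. Ddx4 averaged -3.79 in cKO and -4.12 in control, and its groups overlapped on this scale because control 3 stood at -3.77. Tdrd3 and Tdrd12 had lower values in every cKO pool, with differences of -0.45 and -0.40, close to the shift of all genes. The two-sided exact permutation p was 0.1 for Tdrd5, Tdrd9, Tdrd3 and Tdrd12, the smallest that 3 pools against 3 can give. The share of all tested genes without overlap was not counted on this scale. The separations of these genes are therefore a description only. Limma on this scale called Tdrd5 lower, as it did 20.7% of all tested genes, and called none of the 9 genes higher, against 0.536% of all tested genes. Those calls rest on 59736 degrees of freedom in a fit with 4 from the libraries, because the centring error is shared by all genes, and their p-values are too small to be read.

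Levels relative to Tdrd5 within a library do not depend on library scaling. These ratios were chosen after the values were seen and are given without a test. Tdrd5 is the one gene with every cKO pool lower, so its use as the denominator sets the direction of the ratios for Ddx4, Tdrd9 and Tdrd1, and only their sizes are described. Tdrkh, also drawn in the figure, had overlapping groups in FPKM. The separation of its ratios comes with this denominator and is no result of its own. Ddx4 reached 35.5, 35.0 and 41.4 FPKM per 100 FPKM of Tdrd5 in cKO 1 to 3, against 10.6, 9.58 and 22.2 in control 1 to 3. Tdrd9 reached 9.50, 11.1 and 11.0 per 100 of Tdrd5 in cKO, against 2.75, 2.59 and 4.27 in control. For both helicase genes control 3 was the control pool nearest to cKO. Tdrd1 had 36.7 to 44.5 per 100 of Tdrd5 in cKO and 15.8 to 24.6 in control.

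**Figure D4:**
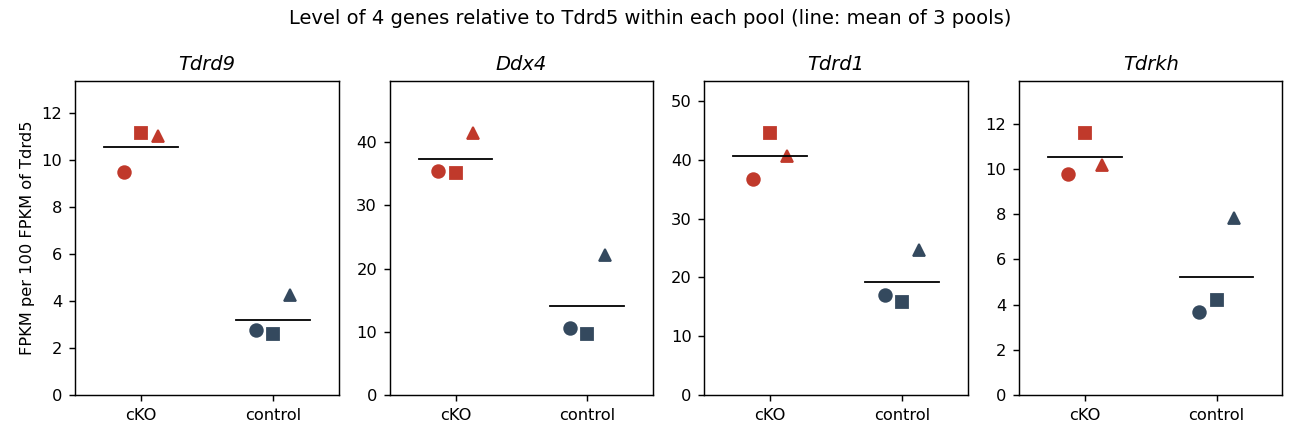
FPKM of Tdrd9, Ddx4, Tdrd1 and Tdrkh per 100 FPKM of Tdrd5 (y axis) in each pool, with cKO on the left and control on the right; symbols mark pools 1 to 3 and the line is the mean. For each of the 4 genes the cKO pools lie above the control pools, and control 3 is the highest control. The denominator Tdrd5 was lower in every cKO pool, and the FPKM of Tdrkh itself overlapped between the groups.

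Partners of these proteins were counted in the same fit. Of 20 genes of PIWI proteins and other piRNA factors, 18 were tested, 2 rose and 1 fell, beside 2.24% and 2.09% of all tested genes, and the median log2 change was 0.32. These counts were 0 and 0 without cKO 1, without control 1 or without control 2, and 1 and 1 without cKO 2. They were 4 and 1 without control 3, where 307 and 353 of the 14934 genes tested passed. With library weights they were also 4 and 1, beside 1041 and 743 of all genes tested. The counts were 0 and 1 on the scale of growing oocyte genes, beside 80 and 3098 of all genes tested. With no filter on low values they were again 0 and 1, beside 4 and 24. Mael, which acts with the nuclear piRNA machinery, measured 8.87, 7.64 and 10.5 FPKM in cKO 1 to 3, against 3.56, 3.30 and 4.38 FPKM in control 1 to 3, with an adjusted p of 0.0169 by limma. Piwil2, the PIWI protein that TDRD1 binds, measured 4.13, 3.45 and 2.47 FPKM in cKO 1 to 3, against 0.92, 1.03 and 1.77 FPKM in control 1 to 3, with an adjusted p of 0.0428. Tex15, which acts in piRNA-directed DNA methylation in the male germ line, measured 9.64, 10.8 and 10.5 FPKM in cKO 1 to 3, against 20.4, 22.3 and 21.2 FPKM in control 1 to 3, with an adjusted p of 0.00803. None of these 3 genes had overlapping groups, and Tex15 was the lower one. Mael and Piwil2 are the 2 that passed with cKO higher. At an unadjusted p below 0.05 by limma, 5 of the 18 tested genes were higher and 1 was lower, against 14.5% and 9.8% of all tested genes. A positive log2 change was found for 14 of the 18, where the median over all tested genes was 0.05.

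The writers of the arginine marks gave no call. Of 13 arginine methylation genes 12 were tested and 0 passed by limma, with 0 also at an unadjusted p below 0.05 and a median log2 change of -0.01. Prmt1, the main asymmetric arginine methyltransferase gene, measured 197 ± 14.4 FPKM in cKO and 203 ± 22.5 FPKM in control (SD, n = 3). Clns1a, a partner of PRMT5, measured 49.8 ± 4.14 FPKM in cKO and 56.3 ± 3.56 FPKM in control. Prmt5 itself, named after its values were seen, measured 36.6, 27.6 and 28.7 FPKM in cKO 1 to 3, against 32.8, 34.6 and 28.6 FPKM in control 1 to 3, with overlapping groups. Of 8 partners of TDRD3 and SND1, 0 passed by limma and 0 were below an unadjusted p of 0.05. Cnbp, an RNA-binding protein gene, measured 232 ± 9.69 FPKM in cKO and 242 ± 5.99 FPKM in control, and Fxr1, a relative of the fragile X gene, 72.5 ± 7.21 FPKM in cKO and 82.1 ± 3.00 FPKM in control.

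Of 20 other Tudor domain genes 19 were tested and 0 passed by limma. At an unadjusted p below 0.05, 5 were higher and 1 was lower, where 14.5% and 9.8% of all tested genes were, and the median log2 change was 0.11. With library weights 2 passed with cKO higher and 1 with cKO lower, beside 1041 and 743 of the 14934 genes tested. On the scale of growing oocyte genes 3 passed with cKO lower, as did 20.7% of all tested genes. The p-values of that scale are too small to be read. The most abundant were Uhrf1, a maintenance methylation factor, at 67.2 ± 10.1 FPKM in cKO and 54.4 ± 1.54 FPKM in control (SD, n = 3), and Sgf29, a histone reader of the SAGA complex, at 42.7 ± 9.36 FPKM in cKO and 41.2 ± 4.96 FPKM in control. Stk31 and Rnf17, the other germ line Tudor genes of that list, were named after their values were seen. Stk31 measured 2.45, 2.52 and 2.63 FPKM in cKO 1 to 3, against 1.69, 1.66 and 1.81 FPKM in control 1 to 3, and Rnf17 1.36, 1.27 and 1.41 FPKM in cKO 1 to 3, against 1.38, 1.54 and 1.44 FPKM in control 1 to 3. Stk31 was thus higher in every cKO pool without passing, at an adjusted p of 0.0826 by limma, and Rnf17 overlapped. Of 15 germ cell RNA-binding genes 14 were tested and 0 passed by limma, with 4 higher and 0 lower at an unadjusted p below 0.05. In that list the helicase gene Ddx3x measured 100.2 ± 5.17 FPKM in cKO and 100.9 ± 7.65 FPKM in control, and Zar1, which binds stored maternal mRNA, 105 ± 41.8 FPKM in cKO and 86.2 ± 22.6 FPKM in control.

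Values of oocyte markers are given here beside those of Tdrd9. Gdf9, whose promoter drives the Cre, measured 259, 198 and 343 FPKM in cKO 1 to 3, against 197, 237 and 228 FPKM in control 1 to 3, and missed the threshold (adjusted p = 0.476 by limma). Of the 15 growing oocyte genes Zp2, Padi6, Zp3 and Khdc3 rose and none fell, and of 6 early oocyte regulator genes 5 were tested, and Sohlh1 and Figla rose, beside 2.24% of all tested genes. None of these 6 genes passed without cKO 1, without control 1 or without control 2. Not all growing oocyte genes were higher, as 3 of the 15 had a negative log2 change, Bmp15, H1foo and Oosp1. The tested genes with the profile over the 6 libraries most like that of Tdrd9, by root mean square difference of centred log2 values, were Zp2, Prtn3 and Xdh, at 0.067, 0.068 and 0.069. Zp2, an egg coat gene, measured 475, 371 and 510 FPKM in cKO 1 to 3, against 222, 244 and 257 FPKM in control 1 to 3. Like Tdrd9, it had its lowest cKO value in cKO 2 and its highest control value in control 3. This likeness follows from the choice of Zp2 by its profile and is no result of its own. Prtn3 had means of 2.02 FPKM in cKO and 0.865 FPKM in control, and Xdh 5.54 FPKM in cKO and 3.16 FPKM in control. The part of oocyte RNA content in the results of Tdrd9, Ddx4 and Tdrd1 was not tested beyond the values relative to growing oocyte genes given above, and the part of the lower granulosa and higher stroma sums in cKO was not tested.

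Windows before the RefSeq start were found for 9 of the 10 genes, Tdrd6 being the one without, and where several starts were given the one nearest the GENCODE M21 gene start was used. The letters CACGTG, searched on both strands, occurred before Tdrd9, Ddx4 and Tdrd1 and before no other of the 9 genes, while 6.02% of 32851 mouse windows of the same length held them. Tdrd9 had 2 matches, beginning 165 and 95 bases before the start. Ddx4 had 1 match beginning 29 bases and Tdrd1 1 match beginning 11 bases before the start, as the capitals in the sequences above show. These are the 3 genes whose cKO pools were all above control, a match of letters noted here as a description of 9 windows. Of all tested genes with a window, 9.83% had the letters before at least 1 start, and the shares were 9.44% of the genes that passed with cKO higher and 10.8% of those that passed with cKO lower. The wider E-box CANNTG, which includes CACGTG, occurred in 7 of the 9 windows and in 66.2% of all windows. The E2F letters TCCCGC occurred before Tdrd3, Tdrd5, Snd1 and Ddx4, against 16.9% of all windows. TAATTG, a homeobox motif, occurred before Tdrkh and Snd1, against 7.17% of all windows, and TAATTA before none of the 9, against 4.84%. The windows also differed in CpG content, with 40 CpG before Tdrd5, 31 before Ddx4, 11 before Tdrd1 and 8 before Tdrd9, beside a median of 6 over all windows.

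**Figure D5:**
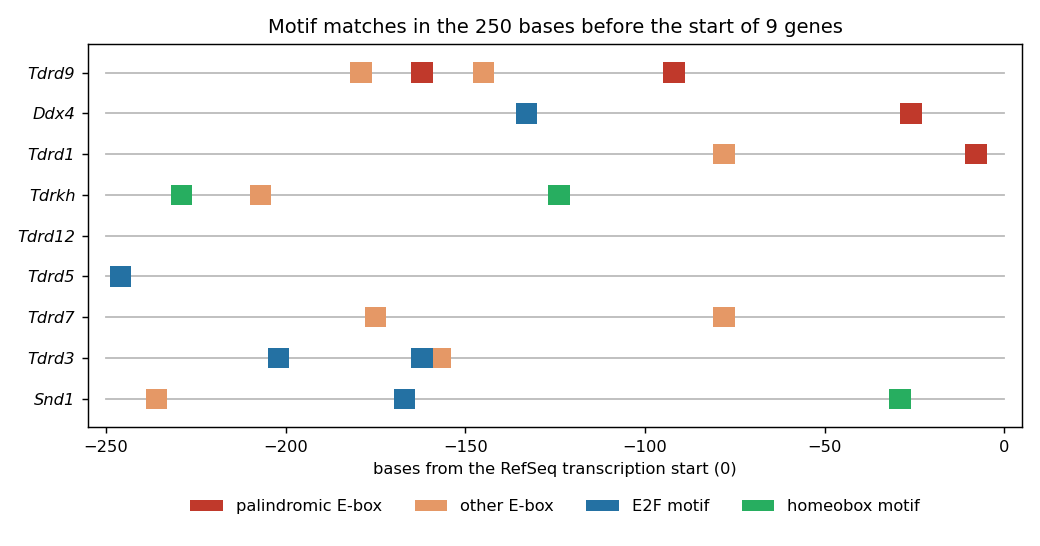
Motif matches on either strand in the 250 bases before the RefSeq start (x axis, bases from the start) of 9 genes; red marks the palindromic E-box, orange other E-boxes, blue the E2F motif and green the homeobox motif, with each bar as long as its match. Red marks appear for Tdrd9 (2), Ddx4 (1) and Tdrd1 (1).

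On the mm10 assembly in GENCODE M21, the 10 genes are protein-coding and lie on 10 different chromosomes, so none are neighbours. Tdrd9 spans chr12:111971559-112068854, Ddx4 chr13:112598333-112652475, Tdrd1 chr19:56826209-56870012 and Tdrd5 chr1:156255296-156303664. Tdrkh and Tdrd5 were the genes with exon bases shared with another gene, both on the opposite strand.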

How the data were processed

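Transcript levels were deposited as 1 table of FPKM for 37924 Ensembl genes in 6 libraries. The unit was read from the tools that the submitters' processing notes name (TopHat2 2.0 and Cufflinks 2.0, with mm10) and from the values. The annotation, strand setting, filters and scaling between libraries behind these deposited FPKM values are, in the sources used here, not given. FPKM divides by the library total, so abundant transcripts that rise lower all others. Groups follow the genotype label, and replicate numbers follow the order of deposit.

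The test was moderated by eBayes with trend (limma 3.58.1, R 4.3.3) on log2(FPKM + 1), cKO over control, which understates the change of low genes. Depth was estimated from FPKM values below 0.15, read as 1 fragment each, and is not an observed count. Genes named were the 10 genes, Gdf9, up to 4 passing genes of each list by p (or the 2 most abundant), and the 3 nearest profiles of a passing gene. Marker lists are given mainly as sums and counts. The genes, lists and motifs were chosen with earlier results of these data known. Promoter sequences are from RefSeq on GRCm38.p6. Results of the targeted gene are not reported here. The alternatives were other pseudocounts, filters and scalings, library weights, robust eBayes, and libraries left out.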

Additional observations from a re-analysis of the deposited data

How the results depend on the processing

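No paired analysis was possible because replicate numbers here only follow the order of deposit. Under 18 alternatives Tdrd9 kept a positive log2 change, from 0.31 to 1.11, with an adjusted p by limma from 0.0107 to 0.386, and passed in 9. The genes passing among the 9 tested numbered 0 higher with no filter, and 0 higher and 1 lower on the oocyte scale. They numbered 2 higher on the TPM scale and 3 higher with library weights (limma warned that their estimation stopped before convergence). Without control 3 and cKO 3 there were 0 higher, and leaving out 1 library gave 0 to 1 higher and 0 lower. The 3 controls were also set against cKO 1 alone, as these libraries lie in 1 range of label numbers. That fit assumes that cKO 1 varies like the controls, so it cannot show whether a call holds. Tdrd9 had a log2 change of 0.81 in it. Over all genes there were 4 higher and 24 lower with no filter, 577 lower with median centring, 80 and 3098 on the oocyte scale, 516 higher with TPM, 1041 and 743 with weights, 204 higher without control 3 and cKO 3, and 22 and 1 with cKO 1 alone; leaving out 1 library gave 0 to 307 higher and 2 to 353 lower. On the oocyte scale itself, weights gave 2 genes higher and 4 lower, and leaving out control 3 and cKO 3 gave 1 and 2; leaving out 1 library gave 0 higher and 1 lower.

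Small log2 changes turned sign, and the larger ones of Tdrd1 and Tdrkh did so on the oocyte scale, with causes not tested. Tdrd3 was -0.015 with quantile normalisation, -0.049 with median centring and -0.45 on the oocyte scale, and -0.038 to 0.088 with 1 library left out. Tdrd7 was -0.0034 with quantile normalisation, -0.40 on the oocyte scale, and -0.0047 to 0.20. Tdrd12 was -0.021 with quantile normalisation, -0.00066 with median centring, -0.40 on the oocyte scale, -0.20 without control 3 and cKO 3, -0.093 with cKO 1 alone, and -0.16 to 0.21. Snd1 was 0.0062 with quantile normalisation, 0.063 with TPM, 0.21 with cKO 1 alone, and -0.22 to 0.14. On the oocyte scale Tdrd1 was -0.00026 and Tdrkh -0.12, where the log2 changes without this centring were 0.47 and 0.35. There, Tdrd1 became 0.040 and 0.021 with pseudocounts of 0.1 and 0.5, 0.12 with weights, 0.11 without control 3 and cKO 3, 0.12 with cKO 1 alone, and -0.061 to 0.094 with 1 library left out. Tdrkh became 0.0025 with a pseudocount of 0.1, 0.0090 with weights, 0.12 and 0.024 in those 2 subsets, and -0.21 to 0.0082.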

Other observations

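Among 15 piRNA partner genes with a promoter window, 5 held the letters CACGTG before at least 1 RefSeq start, beside 9.83% of all tested genes with a window. The 5 were Piwil1, Mael, Mov10l1, Pld6 and Fkbp6. Mov10l1, an RNA helicase gene of piRNA biogenesis, measured 2.30, 2.18 and 2.20 FPKM in cKO 1 to 3, against 0.64, 0.70 and 1.65 FPKM in control 1 to 3, and missed the threshold (adjusted p = 0.0802 by limma). Fkbp6, a co-chaperone gene of the same pathway, measured 12.7, 7.54 and 7.88 FPKM in cKO 1 to 3, against 4.64, 4.50 and 6.63 FPKM in control 1 to 3, at an adjusted p of 0.0968. Both had groups that did not overlap, as did 18.0% of all tested genes with cKO higher, and for both control 3 was the highest control. Pld6 measured 2.14, 2.59 and 2.73 FPKM in cKO 1 to 3, against 1.35, 2.38 and 1.54 FPKM in control 1 to 3, with overlapping groups. Piwil1, the PIWI gene of later spermatogenesis, measured 0.36, 0.44 and 0.47 FPKM in cKO 1 to 3, against 0.46, 0.61 and 0.85 FPKM in control 1 to 3, with overlapping groups, so the letters were also found before a gene that was not higher in cKO. These genes were named after their values and windows were seen.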
